A study of Mus musculus with 6 samples.

Results

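The genes described here are 34 that serve amino acid supply for protein synthesis in alveolar macrophages of the mouse, which patrol the air spaces of the lung. The rule was a list of gene symbols with no cut on a measured value, but the list was chosen with earlier results of these data known. Shares of members set beside those of all genes are therefore descriptions only. All 34 were among the 11789 genes of the deposited table. They comprise 20 cytosolic aminoacyl-tRNA synthetase genes, 6 genes for asparagine, serine and mitochondrial one-carbon enzymes, 3 transcription factor genes and 5 stress-induced regulator genes. RNA was sequenced from macrophages of C57BL/6 mice after an exposure, called BLM in the labels, that both groups received. One group of 3 libraries came from wild-type mice (BLM1 to BLM3) and the other 3, called knockout libraries below, from mice with a conditional A20 knockout (A20-1, A20-3, A20-4). Tnfaip3 encodes A20, a ubiquitin-editing protein that restrains NF-kB signalling. Values of single libraries are given below in the order in which they are listed here. Not given in the sources used here were the Cre driver and deleted exons, the age of the mice, and the dose and day of the exposure. Nor do they say whether libraries came from separate or pooled animals. The p-values therefore measure only the spread between these libraries, which may be technical. The comparison asks how these genes differ between the 2 groups after the exposure.

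Aminoacyl-tRNA synthetases charge each tRNA with its amino acid, and several of them sit with scaffold proteins in a multisynthetase complex. When amino acids run short, uncharged tRNA activates the kinase GCN2 (gene Eif2ak4), which phosphorylates the initiation factor eIF2. General translation then slows while the mRNA of the transcription factor ATF4 is translated better, and ATF4 raises genes for amino acid transport and synthesis, tRNA charging and feedback. The kinases PERK, HRI and PKR feed into the same step from ER stress, heme shortage and double-stranded RNA. ATF4 activity is set largely by translation, so the level of Atf4 mRNA need not follow it.

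Values are FPKM, a measure of fragments scaled to transcript length and library total, so levels can be compared between genes. The knockout libraries summed to between 266094 and 277394 FPKM and the wild-type libraries to between 280415 and 294525, and the read depth is unknown. Tnfaip3 did not separate the groups, with 8.44, 12.9 and 6.80 FPKM in the knockout and 4.47, 2.18 and 21.6 in the wild-type libraries (limma adjusted p = 0.734). Without BLM3 every knockout library lay above both wild-type libraries, against the direction of the knockout label, and the log2 difference was 1.27 ± 0.31 (SE, limma adjusted p = 0.0797). Since this value covers the whole gene and the deleted exons are not known, it does not check the deletion. Every direction below is one between libraries as labelled. Of 16 alveolar macrophage markers 15 were in the table, Chil3 at 2998 to 5471 FPKM and Itgax at 158 to 362 among them, though Siglecf was at only 11.1 to 43.5. Their sums overlapped, at 5877 to 8339 FPKM in the knockout and 4388 to 7621 in the wild-type libraries. Single markers differed in both directions. Cidec (31.0 to 42.1 against 2.24 to 12.7 FPKM), Krt79, Fabp1, Ear1, Ear2, Plet1 and Pparg were higher in every knockout library. Marco (5.02 to 12.1 against 26.1 to 37.3 FPKM) and Ctsk were lower. BLM3 stood apart from the other 5 libraries, with Pearson correlations across genes of 0.886 to 0.925 against 0.953 to 0.982 among the others. Its 9 neutrophil markers in the table summed to 2830 FPKM against 114.9 to 163 elsewhere, and 7 of the 9 were highest there, Retnlg at 103 FPKM against at most 1.05 and Ly6g at 2.25 against at most 0.0752. Summed recruited monocyte and macrophage markers ran from 266 to 418 FPKM in the knockout and from 1142 to 1362 in the wild-type libraries, and lung epithelial markers from 313 to 399 and from 80.6 to 221. The part of these markers in the differences below was not tested, and in bulk RNA fewer cells of a type and less RNA per cell cannot be told apart. Each fit below was therefore repeated without BLM3.

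None of the members passed the test. Genes with a mean of at least 1 FPKM over the 6 libraries were compared as log2(FPKM + 1) with limma, and 33 members entered, Chac1 lying below the minimum. Of these 33, 0 rose and 0 fell (limma, Benjamini-Hochberg adjusted p under 0.05 over 10696 genes), where 1.10% of all genes tested were called (0.252% higher and 0.851% lower in the knockout). At an unadjusted p under 0.05, 7 members were higher in the knockout libraries, against 11.0% of all genes, and 0 were lower, against 9.30%. These 7 were Phgdh, Atf5, Wars, Iars, Yars, Gars and Mars. The differences were positive for 23 of the 33 members, or 69.7%, against 52.9% of all genes, and their median was 0.09 on the log2(FPKM + 1) scale against 0.02. In 10 members every knockout library lay above every wild-type library, a pattern that 15.9% of all genes showed, and no member showed the opposite one (13.1% of all genes). The 2 members with the largest differences were Phgdh and Atf5, each near a doubling. Without BLM3, 1 member rose, Atf5, against 1.35% of all genes, and 0 fell, against 2.50% (3.84% in all), and 24 of 33 differences were positive, against 54.1%. In a fit that weights each library by how well it follows its group (limma array weights), BLM3 received 0.229 and BLM1 6.09, and calls rose to 18.1% of all genes, 8.81% higher and 9.27% lower. In that fit 9 members rose (Cars, Gars, Mars, Wars, Yars, Asns, Phgdh, Atf5 and Trib3) and 0 fell.

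**Figure D1:**
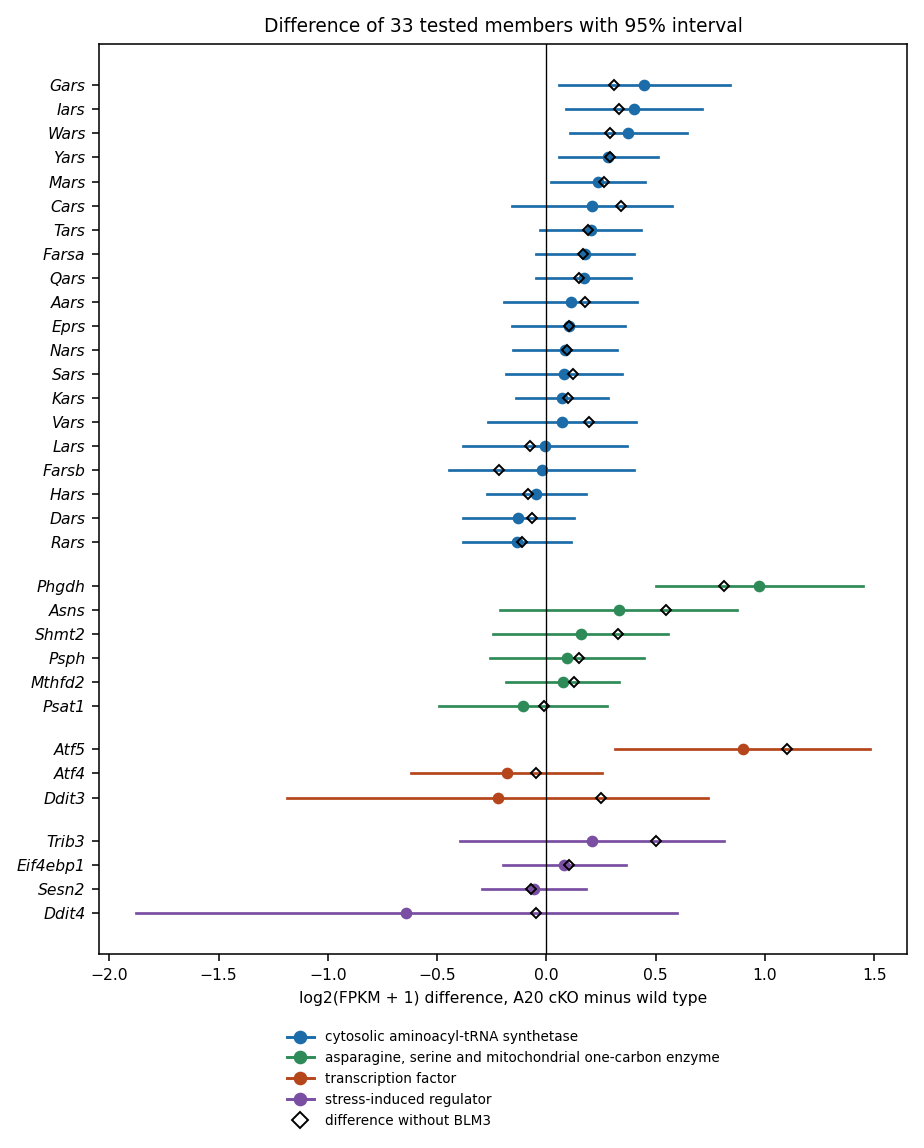
Difference between groups (A20 cKO, the knockout, minus wild type, log2(FPKM + 1), horizontal axis) of the 33 tested members by role, as points with 95% intervals from limma. Open diamonds give the difference without BLM3. The intervals of 7 members (Gars, Iars, Wars, Yars, Mars, Phgdh and Atf5) lie above 0, but none of the members passed adjustment over all genes.

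Atf4 (ENSMUSG00000042406.7, GRCm38 chromosome 15, 80255184 to 80257540, plus strand) encodes the central transcription factor of the response. It had the highest level of the 34 genes, with 66.7, 91.6 and 89.9 FPKM in the knockout and 79.7, 89.9 and 112 in the wild-type libraries. The groups overlapped, and BLM3 was the highest library. Its mean was 82.8 ± 13.9 FPKM in the knockout and 94.0 ± 16.8 in the wild-type libraries (SD, n = 3 each), so that the log2 difference was -0.18 ± 0.18 (SE, limma adjusted p = 0.601). Its 95% interval, -0.62 to 0.25, leaves out a doubling or halving of the transcript.

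Atf5 (ENSMUSG00000038539.15, chromosome 7, 44812256 to 44816658, minus strand) encodes a related bZIP factor whose mRNA is also translated under eIF2 phosphorylation. It had FPKM values of 15.1, 21.6 and 21.4 in the knockout and 6.96, 10.05 and 13.3 in the wild-type libraries. All knockout libraries were above all wild-type libraries, though A20-1 and BLM3 came close to each other. The means were 19.4 ± 3.73 and 10.1 ± 3.17 FPKM (SD, n = 3 each), a ratio of 1.92. With a limma adjusted p of 0.122, the log2 difference of 0.90 ± 0.24 (SE) did not pass. Without BLM3 the difference was 1.10 ± 0.21 and passed narrowly (limma adjusted p = 0.0453). Atf5 shares 82 of its 1993 exonic bases with Il4i1 and Nup62 on the opposite strand in GENCODE M21, and strand use in counting was not given in the sources used here.

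Ddit3 (ENSMUSG00000025408.15, chromosome 10, 127290774 to 127296288, plus strand) encodes CHOP, a partner and target of ATF4 tied to cell death under prolonged stress. It had 12.2, 16.8 and 19.3 FPKM in the knockout and 13.6, 12.8 and 36.8 in the wild-type libraries. Only BLM3 left the range of the others, at 2.78 times the mean of BLM1 and BLM2. The log2 difference between groups was -0.22 ± 0.40 (SE, limma adjusted p = 0.782), and it turned to 0.25 ± 0.19 without BLM3 (limma adjusted p = 0.465). The 3' ends of Ddit3 and of the methionyl-tRNA synthetase gene Mars share 68 exonic bases on opposite strands.

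The stress-induced regulators likewise did not separate the groups, and BLM3 was the highest library for Ddit4, Trib3 and Chac1. Ddit4 encodes REDD1, an inhibitor of the growth kinase complex mTORC1. It had 5.01, 9.41 and 5.40 FPKM in the knockout and 7.80, 5.60 and 25.1 in the wild-type libraries. Its log2 difference was -0.64 ± 0.52 (SE, limma adjusted p = 0.512) with 6 libraries and -0.05 ± 0.26 without BLM3 (limma adjusted p = 0.934).

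Trib3 encodes a pseudokinase that feeds back on ATF4. It had 3.29, 3.41 and 4.11 FPKM in the knockout against 2.18, 2.31 and 4.94 in the wild-type libraries, so that the knockout libraries lay above BLM1 and BLM2 and below BLM3. Its log2 difference rose from 0.21 ± 0.25 (SE, limma adjusted p = 0.667) to 0.50 ± 0.13 without BLM3, which still missed the threshold (limma adjusted p = 0.0887). Chac1, a glutathione-degrading enzyme and a late target of the pathway, was near the lower end of the table with 0.741, 0.678 and 0.361 FPKM in the knockout and 0.466, 0.642 and 2.41 in the wild-type libraries. At 4.35 times the mean of BLM1 and BLM2, BLM3 was the only library above 1 FPKM.

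Sesn2 and Eif4ebp1 were level across the libraries. Sesn2 encodes a leucine sensor upstream of mTORC1 and had 8.15 ± 0.654 FPKM in the knockout and 8.51 ± 0.162 in the wild-type libraries (SD, n = 3 each), which differed by -0.06 ± 0.10 (SE, limma adjusted p = 0.772). That sign turned under rescaling to TPM (0.02). Eif4ebp1 encodes 4E-BP1, which holds back the cap-binding factor eIF4E. It had 15.3, 18.6 and 17.2 FPKM in the knockout and 14.5, 17.1 and 16.5 in the wild-type libraries, a difference of 0.08 ± 0.12 (SE, limma adjusted p = 0.717).

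Within the wild-type group, Ddit3, Ddit4, Trib3 and Atf4 were highest in BLM3, while Sesn2 and Eif4ebp1 in BLM3 lay within the range of the other 5 libraries. Of the 7 tested transcription factor and regulator genes, 4 had their highest value of the 6 libraries in BLM3, where 26.5% of all genes did, and none had its lowest there (27.6% of all genes). The median distance of these 7 from the mean of BLM1 and BLM2 was 0.61 on the log2(FPKM + 1) scale in BLM3, against 0.01 over all genes. Of the 20 synthetases, 2 were highest in BLM3 (Vars and Dars) and 6 lowest (Gars, Iars, Wars, Tars, Qars and Farsb), with a median distance of 0.01. These are values of 1 library, with no replicate. The neutrophil markers stood far higher in the same library. Summed T and NK cell markers were also highest there (343 against 118 to 210 FPKM), and summed alveolar macrophage markers lowest (4388 against 5877 to 8339 FPKM). The part of these markers in the values of BLM3 was not tested.

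**Figure D2:**
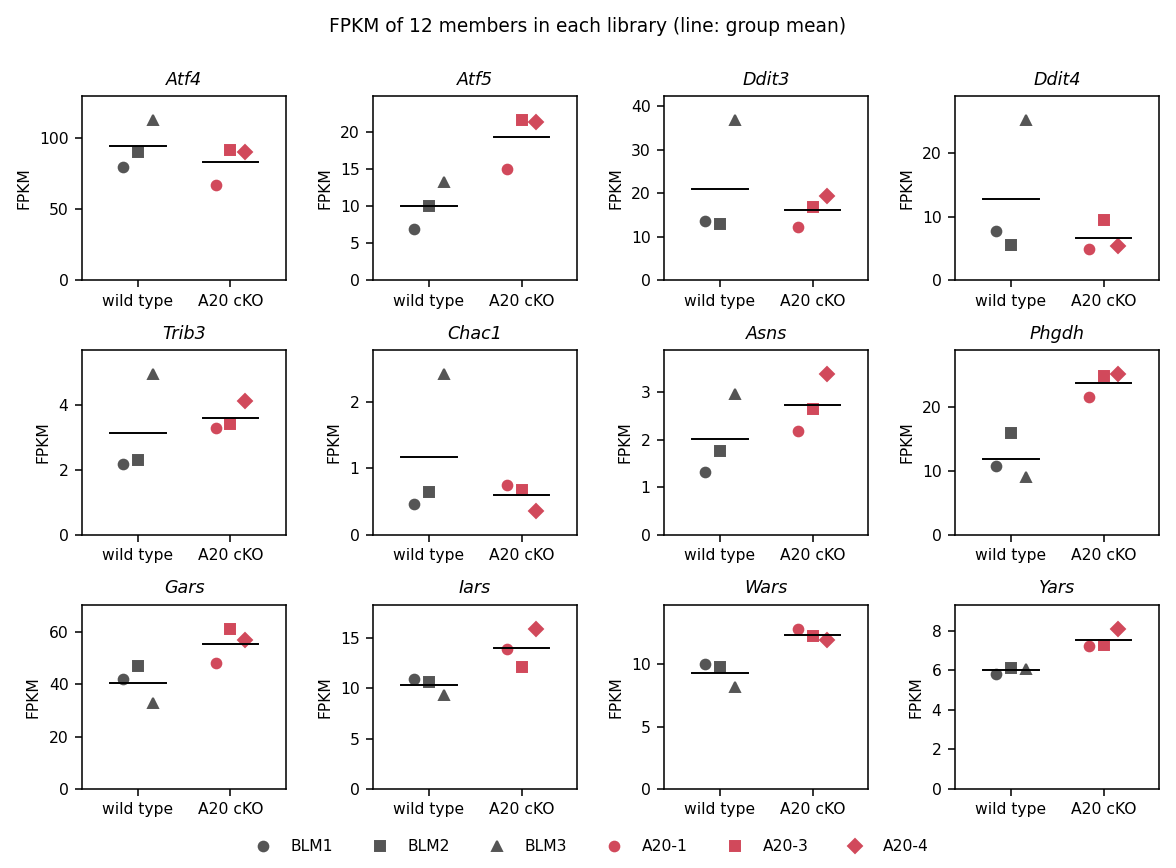
FPKM (vertical axis, from 0) of 12 members in each library, wild type in grey and knockout (A20 cKO) in red, with a line at the group mean. Atf5, Phgdh, Gars, Iars, Wars and Yars show no overlap between groups, while Ddit3, Ddit4, Trib3, Chac1 and Atf4 are highest in BLM3.

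Among the enzymes, Phgdh stood out. Its product, phosphoglycerate dehydrogenase, takes the first step of serine synthesis from glycolysis. Phgdh (ENSMUSG00000053398.11, chromosome 3, 98313170 to 98339990, minus strand) had 21.6, 24.9 and 25.2 FPKM in the knockout and 10.8, 15.9 and 9.13 in the wild-type libraries. The groups did not overlap, and the gap between the lowest knockout and the highest wild-type library was wider than the spread of the knockout libraries. That gap was narrower than the spread of the wild-type libraries. The means were 23.9 ± 1.98 and 11.9 ± 3.54 FPKM (SD, n = 3 each), a doubling, with a log2 difference of 0.97 ± 0.20 (SE). This missed the threshold (limma adjusted p = 0.0798), also without BLM3 (0.82 ± 0.17, limma adjusted p = 0.0561), and passed without BLM2 (1.19, limma adjusted p = 0.0310). Its interval with 6 libraries was 0.50 to 1.45. Of all members Phgdh had the smallest p, the 271st smallest of 10696. In GENCODE M21 13 other genes hold transcripts at least 95% identical to Phgdh over 200 bases or more, processed copies such as Phgdh-ps1 among them, so reads split between the copies could have shifted its value.

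The other steps of serine synthesis did not move with Phgdh. Psat1, the aminotransferase of the next step, had 2.95, 2.08 and 1.95 FPKM in the knockout and 2.22, 2.43 and 3.07 in the wild-type libraries, a difference of -0.11 ± 0.16 (SE, limma adjusted p = 0.732). Psph, the phosphatase that completes serine, had a difference of 0.09 ± 0.15 (limma adjusted p = 0.749). Both genes were low, with means of 2.45 and 2.04 FPKM over the 6 libraries against 17.9 for Phgdh.

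Shmt2 and Mthfd2 encode mitochondrial enzymes that pass the one-carbon unit of serine to folate. Shmt2 had 10.6, 12.2 and 12.6 FPKM in the knockout and 8.92, 9.49 and 13.5 in the wild-type libraries, again with BLM3 the highest. Its difference was 0.16 ± 0.17 (SE, limma adjusted p = 0.622), or 0.33 ± 0.12 without BLM3 (limma adjusted p = 0.161). Mthfd2 stayed between 8.23 and 10.3 FPKM in every library, with a difference of 0.07 ± 0.11 (limma adjusted p = 0.725).

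Asns, asparagine synthetase, is the classic transcript raised by amino acid shortage. It was low here, with 2.17, 2.64 and 3.37 FPKM in the knockout and 1.32, 1.76 and 2.96 in the wild-type libraries. The knockout libraries were above BLM1 and BLM2, while BLM3 lay within the knockout range. The log2 difference was 0.33 ± 0.23 (SE, limma adjusted p = 0.444) and 0.55 ± 0.17 without BLM3 (limma adjusted p = 0.131). On this scale the change of so low a gene is understated. Summed over the 6 enzymes, FPKM was 48.7, 54.5 and 53.9 in the knockout and 33.7, 40.0 and 40.5 in the wild-type libraries, a separation to which Phgdh contributed most.

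All 20 cytosolic synthetases were expressed. Nars and Gars, which charge asparagine and glycine tRNAs, led with means of 52.7 and 48.1 FPKM over the 6 libraries, and the ranges of these 2 genes overlapped. Both lay clear of Hars, the next, at 25.4. From there each gene overlapped with its neighbour in the order down to Cars, the lowest at 5.67, apart from the step between Tars and Farsa. Farsa and Farsb encode the alpha and beta chains of 1 enzyme and had 7.21 and 16.6 FPKM.

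The synthetases showed small differences, mostly in 1 direction, none of which passed the test. Differences were positive for 15 of 20, against 52.9% of all genes, with a median of 0.11 on the log2(FPKM + 1) scale against 0.02 over all genes, and ran from -0.13 for Rars to 0.45 for Gars. In 8 of 20 the knockout libraries all lay above the wild-type libraries, namely Gars, Iars, Wars, Yars, Mars, Tars, Farsa and Qars, against 15.9% of all genes, and in none did they all lie below (13.1%). The summed FPKM of the 20 genes was 349, 356 and 381 in the knockout and 328, 337 and 321 in the wild-type libraries, with means of 362 ± 17.1 and 329 ± 8.07 (SD, n = 3 each), a ratio of 1.10. With values rescaled to TPM the median of the synthetases was 0.20, but that of all genes moved too, to 0.10, and Farsb, Hars and Lars turned from negative to positive.

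Wars, the tryptophanyl enzyme and also a known interferon-induced gene, had the smallest p among synthetases. It had 12.8, 12.3 and 11.9 FPKM in the knockout and 10.0, 9.78 and 8.14 in the wild-type libraries, a difference of 0.38 ± 0.11 (SE, limma adjusted p = 0.143). The groups were well apart, with BLM3 the lowest. Iars, the isoleucyl enzyme, had 14.0, 12.1 and 15.9 FPKM against 10.99, 10.7 and 9.34 in the wild-type libraries, a difference of 0.40 ± 0.13 (limma adjusted p = 0.170). A copy, Gm4849, is 96.0% identical to Iars over 1656 bases and could share its reads.

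Gars had the largest difference, 0.45 ± 0.16 (SE, limma adjusted p = 0.197), from 48.3, 61.4 and 57.1 FPKM in the knockout and 42.0, 47.1 and 33.03 in the wild-type libraries. The closest pair, A20-1 and BLM2, lay almost together. Yars, the tyrosyl enzyme, had wild-type values close together, 5.84, 6.12 and 6.09 FPKM, and 7.23, 7.31 and 8.12 in the knockout libraries, a difference of 0.28 ± 0.10 (limma adjusted p = 0.178). Mars had 14.6, 14.1 and 15.0 FPKM in the knockout and 11.8, 12.1 and 12.7 in the wild-type libraries, a difference of 0.23 ± 0.09 (limma adjusted p = 0.214).

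At the other end, Lars had the largest p, with 17.7, 13.5 and 19.4 FPKM in the knockout and 18.6, 16.7 and 15.2 in the wild-type libraries (difference -0.00 ± 0.16, limma adjusted p = 0.988). Farsb showed how BLM3 could set a value. It had 16.8, 15.8 and 16.5 FPKM in the knockout libraries, 18.4 and 19.97 in BLM1 and BLM2 and 12.4 in BLM3, so its difference went from -0.02 to -0.22 without BLM3 (limma adjusted p = 0.952 and 0.241). The standard errors bound what these libraries could show. The median SE of the 20 synthetases was 0.11, and every 95% interval stayed between -0.45 and 0.84, so a doubling or a halving lay outside the interval of each.

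Synthetases of the multisynthetase complex (Eprs, Iars, Lars, Mars, Qars, Rars, Kars and Dars, a grouping made after values were seen) had a median difference of 0.09, with 5 of 8 positive. The other 12 had a median of 0.14, with 10 positive, where 52.9% of all genes were. No test separates these sets.

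**Figure D3:**
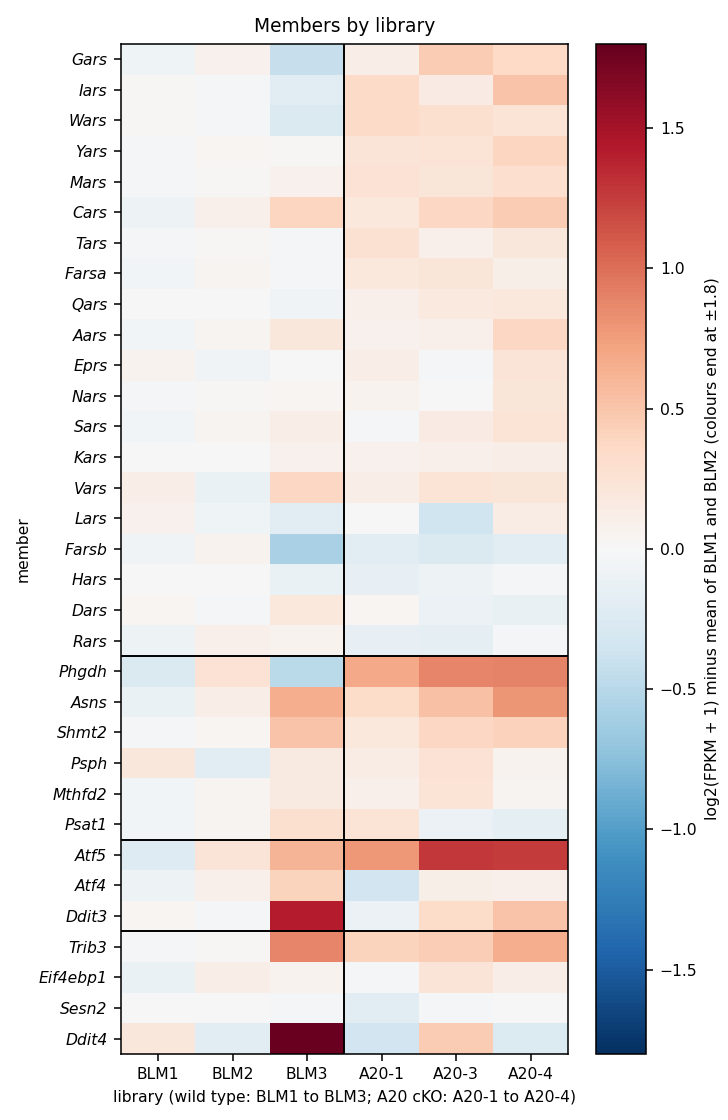
Level of each tested member in each library as log2(FPKM + 1) minus the mean of BLM1 and BLM2 (colour; red higher, blue lower), with lines between roles and between groups. Phgdh and Atf5 are red in all 3 knockout libraries, and Ddit3, Ddit4 and Trib3 are darkest in BLM3.

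ATF4 binds, as a dimer with a C/EBP factor, a composite site whose core is TGATGCAA. The promoters of members were searched for these letters on both strands, from 250 bases before to 50 bases after the RefSeq start site (GRCm38.p6). A promoter was in the RefSeq table for 26 of the 34 members. The core was found in 5 of these 26 genes (19.2%), Chac1, Iars, Tars and Yars among them, against 1.03% of 27025 genes in the table. The looser form TGATGNAA, which includes the core, was found in 8 of 26 (30.8%), adding Asns, Gars and Trib3, against 4.51% of all genes. The ER stress response element was found in 0 of 26 and in 0.137% of all genes. The list was made around the ATF4 response, so the shares with its site describe the list and are no result of these libraries. One site from each of 7 of these promoters is shown because they mark the members with the letters of an ATF4 site. Each is read 5′ to 3′ along the strand that holds the motif, with the 8 matching bases in capitals.

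Iars, chr13:49682126-49682155, minus strand: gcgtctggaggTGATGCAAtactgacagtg

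Yars, chr4:129189895-129189924, plus strand: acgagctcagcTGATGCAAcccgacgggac

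Tars, chr15:11399655-11399684, plus strand: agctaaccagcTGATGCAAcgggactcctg

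Chac1, chr2:119351038-119351067, minus strand: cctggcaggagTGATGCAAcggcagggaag

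Gars, chr6:55037960-55037989, minus strand: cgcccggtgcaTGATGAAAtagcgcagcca

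Asns, chr6:7693214-7693243, minus strand: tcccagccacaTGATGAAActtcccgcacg

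Trib3, chr2:152344028-152344057, plus strand: ccccgcccggcTGATGTAAacctgagctaa

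The sites lay close to the start of transcription in most of these genes. The nearest motif base was 8 bases before the start site in Tars, 16 in Asns and 23 in Gars, position 4 of the transcript in Yars, 8 in Iars and 15 in Trib3, and 186 bases before it in Chac1. All 7 tested members with TGATGNAA had a positive difference, from 0.11 to 0.45, with a median of 0.28. These 7 are not the 7 shown, since Chac1 was not tested and the member at 0.11, whose groups overlapped (limma adjusted p = 0.649), is not among the sequences. The knockout libraries were above all wild-type libraries in 4 of them, Gars, Iars, Tars and Yars. The 18 tested members with a promoter in the table and no such match had a median of 0.08, with 11 positive and 5 above. Over all genes 52.9% were positive and 15.9% had every knockout library above. Phgdh and Atf5, the members with the largest differences, were among these 18. A match is a description of the letters, the sets were not tested against each other, and sites outside the window are not counted.

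The rest of the pathway was read from 6 lists. Over all genes 0.252% rose, 0.851% fell and 52.9% of differences were positive, and these shares stand beside each list below. Of 26 tested other ATF4 targets and partners, 1 rose and 0 fell, with 14 positive differences and a median of 0.03. The riser was Slc7a5, the light chain of the large neutral amino acid transporter, at 20.6 ± 2.47 FPKM in the knockout and 8.63 ± 1.65 in the wild-type libraries (SD, n = 3 each). Its log2 difference was 1.17 ± 0.16 (SE, limma adjusted p = 0.0344). The call held without BLM2 or BLM3 (limma adjusted p = 0.0285 and 0.0276) and ended without A20-1, A20-3, A20-4 or BLM1 (0.106, 0.120, 0.159 and 0.123). Slc3a2, the chain it pairs with, was level at 52.4 ± 11.3 and 53.2 ± 8.93 FPKM.

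Without BLM3, 3 of these 26 rose and 0 fell, against 1.35% and 2.50% of all genes. The 2 further genes were Aldh18a1, which makes the precursor of proline and ornithine (log2 difference 0.60, limma adjusted p = 0.0466, or 0.0557 with 6 libraries), and the glutamine transporter gene Slc38a2 (0.73, adjusted p = 0.0313, or 0.178). With 6 libraries, the knockout lay wholly above the wild type in 9 of the 26 genes and wholly below in 2 (15.9% and 13.1% of all genes). The genes named next were chosen after their values were seen, and none passed the test. Herpud1, an ER stress gene, had a difference of 0.84 ± 0.15 (SE, limma adjusted p = 0.0635), and Cebpg and Cebpb, partners of ATF4, had 0.86 and 0.64 (limma adjusted p = 0.0748 and 0.202). Atf3, a repressor and ATF4 target, had 14.1, 21.99 and 24.3 FPKM in the knockout and 60.0, 40.2 and 77.0 in the wild-type libraries (difference -1.49 ± 0.29, SE, limma adjusted p = 0.0718). The cystine transporter gene Slc7a11 was at 24.4 FPKM in BLM3 and between 1.88 and 3.80 elsewhere.

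Upstream of ATF4, 0 of 17 eIF2 kinase, phosphatase and exchange factor genes passed the test. The 2 with the smallest p were Ppp1r15b, the constitutive partner of the eIF2 phosphatase, and Eif2ak3, which encodes PERK. Ppp1r15b had 44.6, 46.3 and 46.3 FPKM in the knockout and 31.9, 31.3 and 29.6 in the wild-type libraries. At 0.55 ± 0.09 (SE) on the log2 scale it was just short of a call (limma adjusted p = 0.0538), and it passed without BLM3 (0.52, adjusted p = 0.0356) and with values rescaled to TPM (0.64, adjusted p = 0.0449). It missed without A20-1, A20-3, A20-4, BLM1 or BLM2 (limma adjusted p = 0.129, 0.181, 0.220, 0.175 and 0.0921). Eif2ak3 had a difference of 0.51 ± 0.15 (limma adjusted p = 0.145). The list's median was 0.04, with 9 of 17 positive.

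The mitochondrial synthetases, which charge tRNAs for the organelle's own ribosomes, had a median of 0.07, with 12 of 20 positive and 0 called. Rars2 and Ears2 had the smallest p, with differences of -0.34 and 0.23 (limma adjusted p = 0.144 and 0.300). The complex scaffold genes Aimp1 and Aimp2 were level at -0.01 and -0.02. They were listed with Eef1e1, Tarsl2, Sepsecs and Pars2, of which Pars2 is a mitochondrial synthetase also counted in that list, and 0 of the 6 genes were called. Eef1e1 and Tarsl2 had the smallest p there (limma adjusted p = 0.495 and 0.542).

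Of 12 other serine, glycine and folate enzyme genes 0 were called, with a median of -0.02. Mtr, methionine synthase, had 0.37 and Gcsh, of the glycine cleavage system, -0.32 (limma adjusted p = 0.135 and 0.148). Of 31 genes of mTORC1 amino acid sensing, 0 were called and the median was -0.02. Eif4ebp2, a paralogue of Eif4ebp1, had 0.53 (limma adjusted p = 0.102), and Lamtor4, of the lysosomal anchor of mTORC1, had -0.50 (0.103). Without BLM3, Lamtor4 fell by 0.59 (limma adjusted p = 0.0344). At an unadjusted p under 0.05, the 6 lists held 0 higher and 1 lower mitochondrial synthetase, 0 and 0 scaffold genes, 4 and 0 eIF2 genes, 9 and 2 ATF4 targets, 1 and 1 folate enzymes, and 1 and 4 mTORC1 genes, against 11.0% higher and 9.30% lower over all genes.

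**Figure D4:**
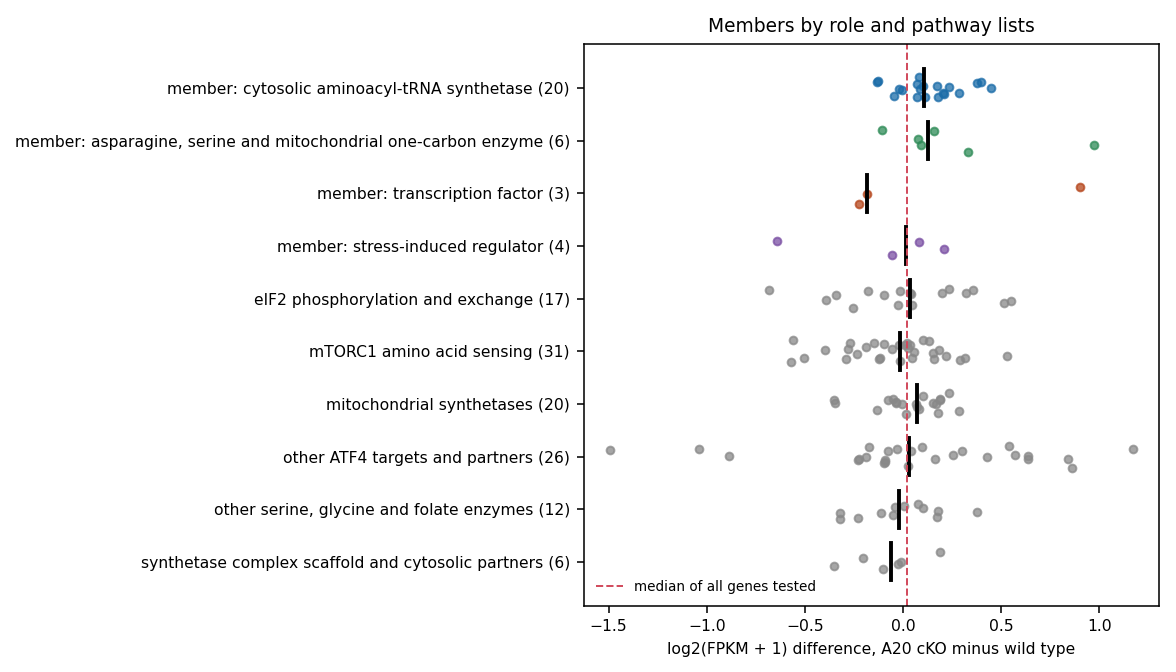
Difference between groups (A20 cKO, the knockout, minus wild type, log2(FPKM + 1), horizontal axis) of each tested gene in the 4 roles of members (colour) and 6 pathway lists (grey), with the number of genes tested and a bar at the median. The medians lie between -0.18 and 0.13, near the median of all genes (dashed, 0.02), and the ATF4 targets spread most widely.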

How the data were processed

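RNA-seq of alveolar macrophages (KAPA Stranded RNA-Seq kit, total RNA, per the labels' protocols) was deposited as FPKM per gene, per the file headers. Not given in the sources used here were the aligner, the quantifier and the use of strand; the submitters' processing notes name GRCm38. Columns were assigned to groups by name: those named for A20 as knockout, those named only for BLM as wild type. Genes with a mean of at least 1 FPKM were compared as log2(FPKM + 1), a pseudocount of 1, in limma 3.58.1 (lmFit, eBayes with trend, two-sided, Benjamini-Hochberg, threshold 0.05). Whole reads could not be recovered from low values, since at most 0.423% of ratios between libraries fell in 1 narrow bin. On simulated data of this comparison (10696 genes), 64 of 100 genes changed by 1 log2 unit and 90 of 100 changed by 2 were recovered, with 8 false calls. Members and lists were chosen with earlier results of these data known. Members are named by a fixed rule: those called with or without BLM3, the smallest and largest p of each role and 6 core genes; Mars, Yars, Gars, Psat1, Shmt2, Mthfd2 and Farsb were added after their values were seen. In pathway lists the called genes, or the 2 with the smallest p, are named. The sequence of 1 matched promoter is not reported here. Overlaps and similar transcripts came from GENCODE M21 and blastn 2.17.0. Alternatives were other pseudocounts, filters and scalings, array weights and leaving out each library.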

Additional observations from a re-analysis of the deposited data

How the results depend on the processing

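No paired analysis was possible because the table's columns do not carry the replicate numbers of the labels. No member fell under any setting. With array weights, which gave BLM1 a weight of 6.09 and BLM3 0.229, 9 members rose (Cars, Gars, Mars, Wars, Yars, Asns, Phgdh, Atf5 and Trib3), where 18.1% of all genes were called, 942 rises and 992 falls. Counts of members that rose ran from 0 to 1 when single libraries were left out (Phgdh without BLM2, Atf5 without BLM3), and were 0 under every other setting. Over all genes, 27 rises and 91 falls became 17 and 58 with a minimum mean of 5 FPKM and 41 and 64 under TPM. Leaving out single libraries gave 0 to 144 rises and 0 to 267 falls, with none of either without A20-3 (limma, 901 genes higher and 793 lower at an unadjusted p under 0.05). The median of the synthetases was 0.20 under TPM, 0.16 with array weights and 0.06 to 0.16 when a library was left out, and that of the enzymes 0.25 with array weights and 0.083 to 0.24. For mitochondrial synthetases it was 0.028 with a pseudocount of 5, 0.0135 with a minimum mean of 5, 0.17 under TPM and 0.012 to 0.097 without single libraries. For eIF2 genes it was 0.12 under TPM, 0.089 with array weights and -0.011 to 0.038, for folate enzymes 0.059 under TPM and 0.067 with array weights, and for mTORC1 genes 0.061, -0.065 and -0.044 to 0.0195. Signs of uncalled members turned under TPM for Farsb (0.0605), Hars (0.036), Lars (0.077) and Sesn2 (0.019), and with array weights for Psph (-0.023), Atf4 (0.021) and Ddit3 (0.21). Without single libraries the difference ran from -0.22 to 0.10 for Farsb, -0.11 to 0.14 for Lars, -0.0498 to 0.19 for Vars, -0.036 to 0.17 for Psph, -0.48 to 0.25 for Ddit3 and -0.095 to 0.0028 for Sesn2. The cause of these changes was not tested. Read depth is unknown, so low genes such as Asns, Psat1, Psph and Chac1 carry counting error that cannot be given.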
